A study of Mus musculus with 2 samples.

Results

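The genes of classical cadherins, catenins and desmosomes were examined in single cells of the adult mouse mammary epithelium. They were the 10 genes whose symbols in the deposited gene list were Cdh1, Cdh3, Ctnnb1, Ctnna1, Dsp, Jup, Pkp1, Dsc3, Dsg2 and Dsg3, of 27998 genes in all. All 10 were found, each at 1 row. Single cells were captured with the 10X Chromium droplet method, which tags the 3' end of each RNA molecule and counts molecules. The total epithelial library held Lin–CD24+ cells of female FVB/NJ mice, an inbred strain, at 10 weeks of age, and the sorted basal library held Lin–CD29hiCD24+ cells of the same strain and age. Neither library was treated. Each library was 1 pool of cells from 4 mice, so mice cannot be told apart within it and no difference between classes or libraries had a replicate check. Values are given as descriptions, with 95% intervals that cover counting error only.

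The mammary duct is a bilayer. Basal (myoepithelial) cells contract and lie on the basement membrane, and luminal cells line the lumen, where luminal progenitor (LP) cells and hormone-sensing mature luminal (ML) cells are distinguished. Adherens junctions join neighbouring cells through classical cadherins, whose tails bind beta-catenin or plakoglobin and, through alpha-catenin, actin. Desmosomes are the stronger spot junctions: desmogleins and desmocollins, which are also cadherins, bind plakoglobin and plakophilins, and desmoplakin ties these to keratin filaments. E-cadherin (Cdh1) is the classical cadherin of luminal cells and P-cadherin (Cdh3) is known from the basal layer of many epithelia.

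The total epithelial library held 3302 cells with 802 to 12967 counts each (median 2425.5), and the sorted basal library held 4771 cells with 137 to 1946 counts (median 487). The classes were set by counts of other genes. Of the 3302 cells, 1280 had 10 or more counts of Krt5, Krt14 and Acta2 summed and were called basal, 1133 had 10 or more of Prlr, Stc2 and Gpx3 and were called ML, and 766 of the remaining cells had 3 or more of Krt8, Krt18 and Krt19 and were called LP. A further 26 cells met both of the first rules and were kept apart; 20 of them were called doublets by Scrublet. Marker genes outside the rules followed the names: 9 basal markers summed to 25492 CPM (counts per 1000000 counts of the class) in basal cells against 194 in LP and 101 in ML cells, 8 LP markers to 55980 CPM in LP cells against 2664 and 5146 in basal and ML cells, and 6 ML markers to 7610 CPM in ML cells against 75.4 and 764 in basal and LP cells. Fibroblast genes (6 summed) stood at 358, 83.4 and 1419 CPM in basal, LP and ML cells. When the ML cells that lacked luminal keratins were left out, the same genes of the 10 were past 2-fold as with them. The libraries had 28 cell barcodes in common. Cells just inside and just outside each rule numbered 6 and 5 for basal and 31 and 22 for ML. For the luminal keratin count they were 172 and 198. The 198 include cells of other classes, because only 97 cells had no epithelial class, so they do not show how many just missed LP.

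The promoters of Dsp and Jup are shown because these plaque genes had opposite orders over the classes. The letters come from the RefSeq annotation of GRCm38.p6 (the mm10 assembly), which gave a promoter for 3 of the 10 genes, and run from 250 bases before the annotated start to 50 after it. Capitals mark the motifs searched on both strands: the E-box CAGGTG, which Snail-family repressors are known to bind, and the GC box GGGCGG, bound by Sp1. Dsp lies on the forward strand (chr13:38151044-38151343) and Jup on the reverse strand (chr11:100397741-100398040).
Dsp: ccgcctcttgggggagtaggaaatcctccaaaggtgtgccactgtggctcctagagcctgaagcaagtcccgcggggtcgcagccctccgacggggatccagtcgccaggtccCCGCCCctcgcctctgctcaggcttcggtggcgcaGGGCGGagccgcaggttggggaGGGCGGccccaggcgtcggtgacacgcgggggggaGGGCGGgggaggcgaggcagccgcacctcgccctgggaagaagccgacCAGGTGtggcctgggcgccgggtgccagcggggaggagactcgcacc
Jup: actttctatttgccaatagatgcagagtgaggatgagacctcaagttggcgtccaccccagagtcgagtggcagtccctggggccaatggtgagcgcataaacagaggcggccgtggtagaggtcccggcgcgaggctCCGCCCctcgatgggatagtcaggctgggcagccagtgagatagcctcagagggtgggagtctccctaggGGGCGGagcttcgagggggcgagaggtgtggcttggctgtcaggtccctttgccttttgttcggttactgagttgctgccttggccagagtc
The Dsp window was 73% G and C and held 4 GC boxes and an E-box whose first base was 4 bases after the start. The Jup window was 60.7% G and C and held 2 GC boxes and no CAGGTG. Neither held the letters TATAAA or the grainyhead motif AACCGGTT. Of 32851 mouse promoters of the same length, 35.7% held GGGCGG, 20.2% CAGGTG, 13.6% TATAAA and 0.146% AACCGGTT, so GGGCGG and CAGGTG are common.

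E-cadherin and P-cadherin had opposite patterns across the bilayer. Cdh1 stood at 20.4 CPM in basal cells (15.3 to 26.6, 54 counts), 68.1 in LP cells (57.5 to 80.0, 147 counts) and 79.8 in ML cells (71.5 to 88.9, 330 counts). It was therefore 3.34-fold higher in LP than in basal cells (2.43 to 4.66) and 3.92-fold higher in ML than in basal cells (2.93 to 5.33). The luminal classes were close to each other, with an ML to LP ratio of 1.17 whose interval of 0.962 to 1.43 included 1. Cdh3 stood at 30.9 CPM in basal cells (24.6 to 38.4, 82 counts), with a single count in LP cells (0.463 CPM) and 3 counts in ML cells (0.726 CPM). The basal to LP ratio was 66.7 and the basal to ML ratio 42.6, with wide intervals of 11.6 to 2668 and 14.1 to 211. With so few luminal counts the sizes moved with the processing: on the log2 scale the basal to LP ratio was 6.06 and fell to 4.46 when each cell was given equal weight, and the basal to ML ratio was 5.41 and fell to 4.46 when the 26 cells of both rules were put in ML.

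**Figure D1:**
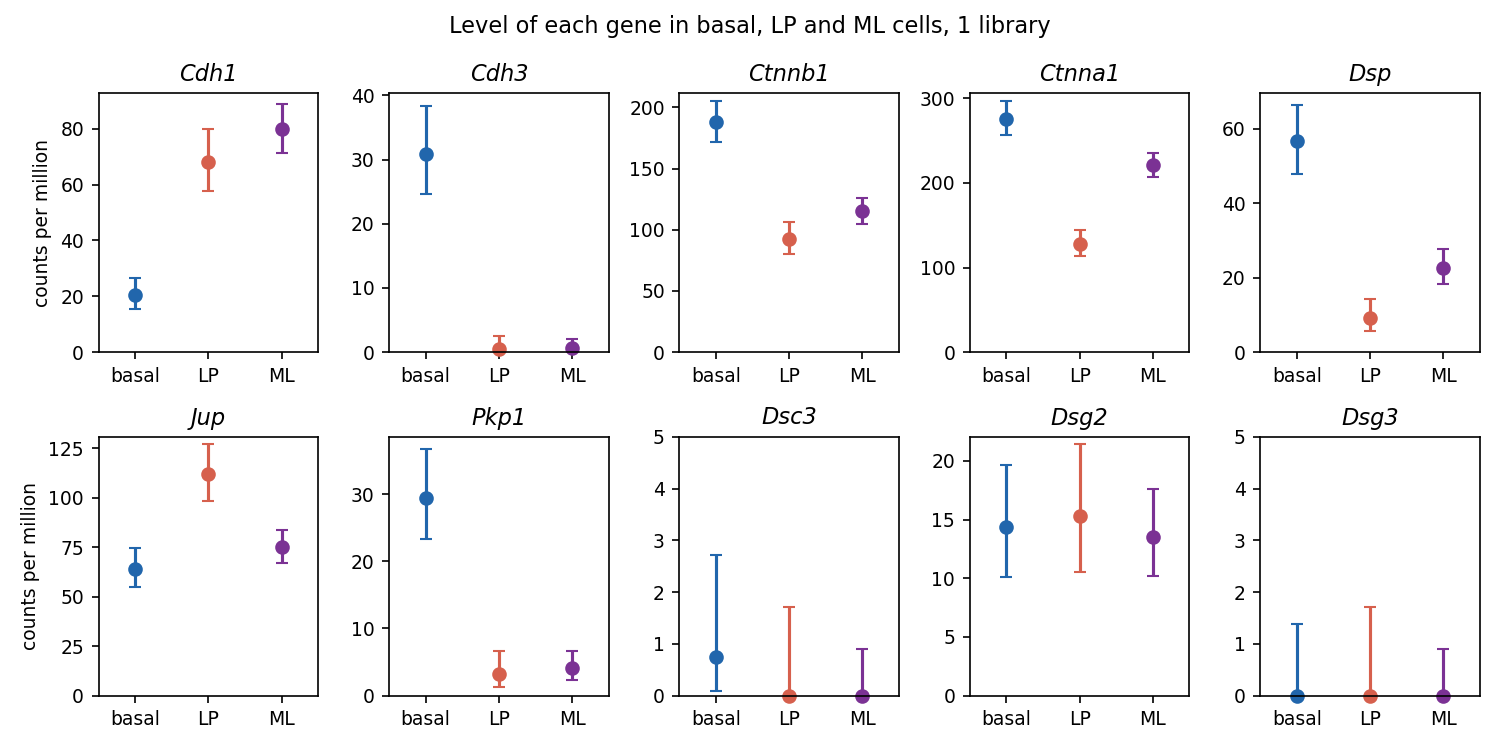
Level of each gene in CPM (vertical axes, from 0, scaled per gene) in the 1280 basal, 766 LP and 1133 ML cells of the total epithelial library; points are summed counts of the class and bars 95% Poisson intervals. Cdh1 was lowest in basal cells at 20.4, whereas Cdh3, Dsp and Pkp1 were highest there at 30.9, 56.6 and 29.4.

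The exchange of cadherins can be read within a class without any scaling between classes. Basal cells had 1.52 Cdh3 counts per Cdh1 count (1.06 to 2.18), LP cells 0.00680 (0.000171 to 0.0385) and ML cells 0.00909 (0.00187 to 0.0268). The counts are not corrected for how well each RNA is captured, so the ratio serves to compare classes and not to say which cadherin is more abundant. In sorted basal cells that met the basal rule it was 1.70 (1.23 to 2.38, from 104 and 61 counts), and the interval overlapped that of the unsorted basal cells. The 26 cells of both rules lay between the classes at 0.375 (0.0641 to 1.56, from 3 and 8 counts).

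Few cells had a count of either cadherin at this depth. Cdh1 was counted in 22.7% of ML, 16.6% of LP and 3.83% of basal cells, and Cdh3 in 0.265%, 0.131% and 5.47%. After every cell was thinned to 1000 counts, which left 1111, 725 and 1228 cells and so dropped 22, 41 and 52, the shares in the same order were 7.87%, 7.25% and 1.88% for Cdh1 and 0.0590%, 0% and 2.78% for Cdh3. The higher share of Cdh1 in ML than in LP cells thus shrank once depth was equal, while the gap between luminal and basal cells stayed. The 97 cells with no epithelial class had no Cdh1, Cdh3, Dsp, Pkp1 or Dsg2 count; 0 of 97 cells allows a share with a count of up to 3.09%, at a median of 1184 counts per cell against 1820 in basal cells. That limit lies close to the basal shares themselves, so these cells set no useful background for the rarer genes.

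Of the basal cells, 47 had Cdh1 counts only, 68 Cdh3 only, 2 both and 1163 neither. In LP cells 127 had Cdh1 only and 1 had Cdh3 only, and in ML cells 257 and 3, with no cell of either class holding both. The 2 basal cells with both are too few to say whether the cadherins share cells. The markers of each class were also counted at low levels in the other classes. In basal cells the 8 LP markers stood at 1.07% to 5.33% of their LP level and the 6 ML markers at 0.437% to 12.7% of their ML level, and Cdh1 at 29.9% of its LP level and 25.5% of its ML level. The 9 basal markers stood at 0.260% to 8.64% of their basal level in LP cells and at 0.119% to 2.07% in ML cells, and Cdh3 at 1.50% and 2.35%, from 1 and 3 counts. The part of free RNA or of mixed cells in these values was not tested.

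**Figure D2:**
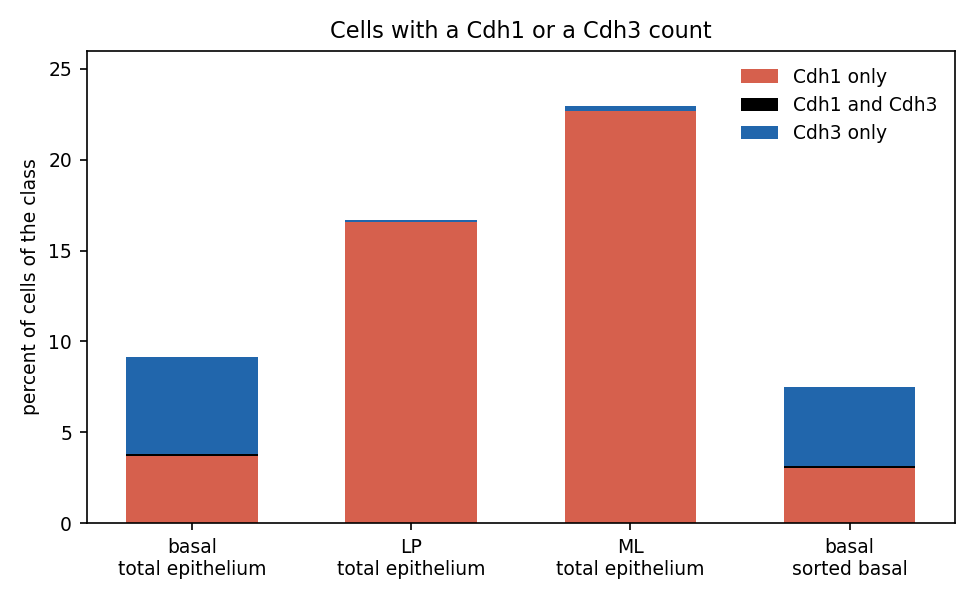
Percent of cells of each class (vertical axis) with counts of Cdh1 only, of both cadherins or of Cdh3 only, for the total epithelial library and the basal cells of the sorted library, before thinning. Cdh3 made up most of the basal bars (68 of 1280 cells with Cdh3 only) and almost none of the LP and ML bars (1 and 3 cells).

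Basal cells with luminal keratins had more Cdh1 in the sorted library only. The same cut of 3 keratin counts was used at different depths, so it does not pick like cells in the libraries. It took 701 of 1280 basal cells in the total epithelial library and 224 of 1757 in the sorted one. In the total epithelial library, the 701 basal cells with 3 or more luminal keratin counts had 19.9 CPM of Cdh1 (13.7 to 27.9) and the other 579 had 21.1 (13.1 to 32.3). In the sorted library, the 224 basal cells with luminal keratins had 114 CPM (69.5 to 176, 20 counts) and the 1533 without had 40.1 (28.8 to 54.4, 41 counts), and these intervals did not overlap. For Cdh3 the values were 30.2 and 32.2 CPM in the total epithelial library, and 68.2 (35.3 to 119) and 90.0 (72.6 to 110) in the sorted one. By depth, the 640 deeper basal cells had 24.3 CPM of Cdh1 (17.6 to 32.7) and the 640 shallower ones 12.5 (6.24 to 22.4). LP and ML cells split at their median depth in the same way had the opposite order. The deeper and shallower cells had 63.8 and 78.4 CPM of Cdh1 in LP cells and 70.5 and 99.0 in ML cells. The size of the gap between luminal and basal cells thus varied with depth, though each luminal value exceeded both basal ones.

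Cdh3 and Cdh1 are neighbours in the genome. On GRCm38, Cdh3 spans chr8:106510891-106557297 and Cdh1 chr8:106603351-106670246, both on the forward strand and 46053 bases apart. Over 7155 genes with 100 or more counts in the 3 classes, the genes whose split of CPM over the classes was nearest to that of Cdh3 (96.3% basal, 1.44% LP, 2.26% ML) were Col4a1 and Mmp2, a basement membrane collagen and a matrix protease, and Bmp7, a secreted growth factor. Those nearest to Cdh1 (12.1%, 40.5% and 47.4%) were Tnk1, a kinase, Fam221a and Syngr1. The measure was the Euclidean distance over 3 classes of 1 library, so many genes can lie close by it.

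The catenins of the adherens junction were found in every class. Ctnnb1 (beta-catenin, which binds cadherin tails and also carries Wnt signals) stood at 188 CPM in basal (172 to 205), 92.7 in LP (80.3 to 106) and 115 in ML cells (105 to 126). Ctnna1 (alpha-catenin, the link to actin) stood at 276 CPM in basal (256 to 296), 128 in LP (113 to 144) and 221 in ML cells (207 to 235). LP cells were lowest in both, and basal cells were 2.03-fold (1.72 to 2.40) and 2.16-fold (1.87 to 2.49) above them. Against ML cells the basal levels were 1.63-fold higher for Ctnnb1 (1.44 to 1.85) and 1.25-fold for Ctnna1 (1.13 to 1.38), and ML cells exceeded LP cells 1.24-fold (1.05 to 1.47) and 1.73-fold (1.51 to 1.98).

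The basal to LP ratios of the catenins lay at the 2-fold line and moved with the scaling. The median gene was itself 0.23 higher on the log2 scale in basal than in LP cells over 9604 genes, and with median-of-ratios scaling Ctnnb1 and Ctnna1 were 0.83 and 0.92 higher, under 2-fold. Between ML and LP cells the median gene was 0.29 higher in ML cells, and with that scaling the ML excess of Ctnnb1 was 0.10 and that of Ctnna1 0.57. Both genes were also counted outside the 3 classes: of the 97 cells with no epithelial class, 17 had a Ctnnb1 count and 27 a Ctnna1 count. Within ML cells, the 55 cells that also had 2 or more counts of Elf5, Kit and Aldh1a3 had 61.9 CPM of Ctnnb1 (37.8 to 95.6, 20 counts) against 120 in the other 1078 (109 to 131), and 124 CPM of Ctnna1 (88.4 to 169, 40 counts) against 229 (214 to 245). Cdh1 in the same cells was 80.5 CPM against 79.8. These 55 cells were chosen by LP genes, and no test was made. The choice also favoured deep cells: the 55 held 323111 counts in all and the other 1078 held 3809784. Among all ML cells, the deeper and shallower ones had 111 and 124 CPM of Ctnnb1 and 202 and 258 of Ctnna1. Reads of Ctnnb1 may include some from Ulk4 and 4930593C16Rik, which overlap it on the other strand, because the strand setting of the counting is not given. Lrrtm2 overlaps Ctnna1, and Gm16090 overlaps Dsg2, on the other strand too. On the same strand, Mir7090 overlaps Ctnnb1 and Gm36938 overlaps Pkp1.

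The desmosome genes split into 3 patterns: basal-high (Dsp, Pkp1), luminal-progenitor-high (Jup) and no clear difference (Dsg2), with Dsc3 and Dsg3 at or near 0. As a sum, the 6 genes gave 165 CPM in basal (150 to 181), 140 in LP (125 to 157) and 115 in ML cells (105 to 126).

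Dsp, desmoplakin, the protein that anchors keratin, had 56.6 CPM in basal cells (47.9 to 66.4, 150 counts), 22.5 in ML cells (18.2 to 27.6, 93 counts) and 9.27 in LP cells (5.66 to 14.3, 20 counts). The 3 intervals did not overlap. Basal cells were 6.10-fold above LP cells (3.82 to 10.3) and 2.51-fold above ML cells (1.93 to 3.29), and ML cells 2.43-fold above LP cells (1.49 to 4.16). The last of these was not past 2-fold when the class rules asked for 20 counts in place of 10, with a log2 ratio of 0.61 against 1.28. A Dsp count was seen in 9.92%, 2.35% and 7.50% of cells in the order basal, LP, ML, and in 5.15%, 0.791% and 2.44% at 1000 counts per cell, so the order basal, ML, LP remained with equal depth. A predicted gene, Gm10129, lies antisense to Dsp at its position of chr13:38151294-38198577.

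Pkp1, plakophilin 1, a plaque protein known from stratified epithelia, was at 29.4 CPM in basal cells (23.3 to 36.7, 78 counts), 3.24 in LP cells (7 counts) and 4.11 in ML cells (17 counts). That was 9.07-fold above LP cells (4.20 to 23.3) and 7.15-fold above ML cells (4.19 to 12.9). The LP level was 11.0% of the basal one and the ML level 14.0%, beside the ranges of the 9 basal markers given for Cdh3. The luminal classes did not differ beyond counting error, at a ratio of 1.27 with an interval of 0.500 to 3.62.

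Jup, plakoglobin, the catenin that adherens junctions and desmosomes share, ran the other way. Its level was 112 CPM in LP cells (98.4 to 127, 242 counts), 75.0 in ML cells (66.9 to 83.8, 310 counts) and 64.1 in basal cells (54.8 to 74.5, 170 counts). LP cells were 1.75-fold above basal cells (1.43 to 2.14) and 1.49-fold above ML cells (1.26 to 1.77), while the ML to basal ratio of 1.17 had an interval of 0.967 to 1.42. At 1000 counts per cell the share with a Jup count was 10.0% in LP cells, against 6.78% in ML and 5.72% in basal cells. In the 97 cells with no epithelial class, 4 had a Jup count.

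Within a class, the balance of counts between plakoglobin and its partners differed. Jup counts per Ctnnb1 count were 0.341 in basal (0.285 to 0.407), 1.21 in LP (0.999 to 1.47) and 0.651 in ML cells (0.563 to 0.753). Dsp counts per Jup count were 0.882 in basal (0.704 to 1.11), 0.0826 in LP (0.0496 to 0.130) and 0.300 in ML cells (0.235 to 0.379). In both ratios the 3 intervals were apart, with LP at one end and basal at the other. The ratio of Ctnna1 to Ctnnb1 varied less, at 1.47, 1.38 and 1.92.

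In the total epithelial library, basal cells with luminal keratins had the higher levels of both plaque genes. Dsp was at 64.5 CPM (52.9 to 78.0, 107 counts) in the 701 cells with luminal keratins and 43.3 (31.3 to 58.3, 43 counts) in the 579 without. For Jup the levels were 75.4 (62.7 to 89.8, 125 counts) and 45.3 (33.0 to 60.6, 45 counts). The intervals overlapped for Dsp and did not for Jup. In the sorted library the levels with and without luminal keratins were 148 and 123 CPM for Dsp and 119 and 92.9 for Jup, with overlapping intervals. Split by depth instead, the 640 deeper and 640 shallower basal cells had 54.2 and 61.4 CPM of Dsp and 65.5 and 61.4 of Jup.

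The desmosomal cadherins were sparse. Dsg2, the desmoglein found in simple epithelia, had 14.3 CPM in basal (10.1 to 19.7, 38 counts), 15.3 in LP (10.5 to 21.5, 33 counts) and 13.5 in ML cells (10.2 to 17.6, 56 counts). Ratios between classes ran from 1.06 to 1.13, with intervals from 0.648 to 1.77 that do not exclude a moderate difference. Dsc3, a desmocollin of stratified epithelia, had 2 counts in basal cells and none in LP or ML cells. Dsg3, the desmoglein of the basal epidermis, had no count in any cell of the 3 classes, which allows up to 1.39 CPM in LP, 1.13 in basal and 0.726 in ML cells.

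In all, 8 of the 10 genes reached 20 summed counts in basal and LP cells, and 6 of these 8 were past 2-fold, where 34.7% of 9604 genes were. Cdh3, Ctnnb1, Ctnna1, Dsp and Pkp1 were higher in basal cells (22.3% of all genes) and Cdh1 was higher in LP cells (12.3%). With median-of-ratios scaling 4 were past 2-fold, beside 33.3% of all genes. Between basal and ML cells, 4 of 8 were past 2-fold, where 40.0% of 10403 genes were, so the share was near the background: Cdh3, Dsp and Pkp1 were higher in basal cells (20.4% of all genes) and Cdh1 in ML cells (19.6%). Between ML and LP cells only Dsp of 7 genes was past 2-fold, higher in ML cells, where 28.4% of 9724 genes were past it and 17.9% higher in ML. The median log2 ratio of the genes was 1.06, 0.51 and 0.31 in the 3 comparisons, beside 0.23, -0.03 and 0.29 over all genes.

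**Figure D3:**
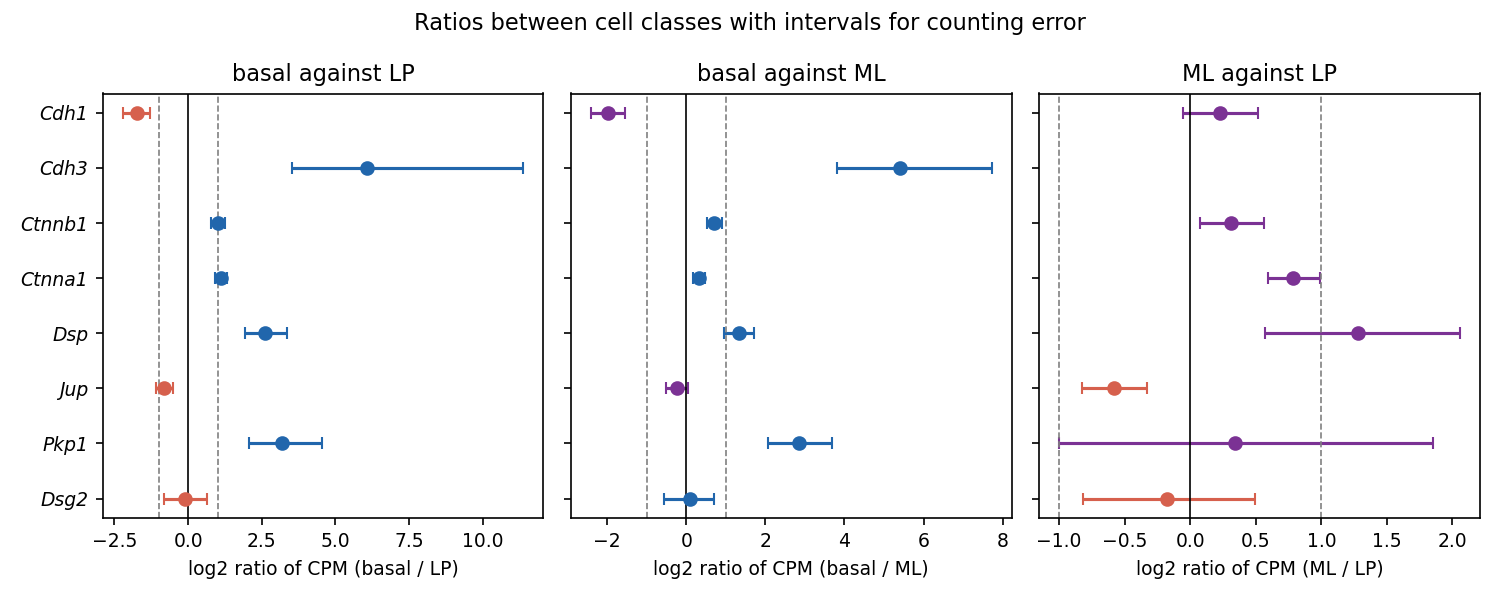
Log2 ratio of CPM between classes (horizontal axes, which differ between panels) for genes with 20 or more counts in the pair; points are coloured by the higher class, bars are 95% intervals for counting error, and dashed lines mark 2-fold. Cdh1 sits left of the line in both basal panels (3.34-fold and 3.92-fold), and Dsp is the only gene right of it in the ML to LP panel (2.43-fold).

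Other genes of these junctions showed which paralogs each lineage carried. Of 12 other desmosome genes, 5 had enough counts in basal and LP cells: Pkp3 and Perp were past 2-fold higher in basal cells and Pkp2 and Ppl in LP cells, with a median log2 ratio of 0.56. Over all genes, 22.3% were past it higher in basal and 12.3% in LP cells. Perp, a desmosome protein and known target of p63, stood at 867 CPM in basal, 163 in ML and 79.2 in LP cells, which was 10.9-fold (9.36 to 12.9) and 5.33-fold (4.89 to 5.82) higher in basal cells. Pkp2, plakophilin 2, the plakophilin of simple epithelia, had 3.02 CPM in basal cells (8 counts), 58.8 in LP and 34.6 in ML cells, 19.5-fold (9.60 to 46.2) and 11.5-fold (5.67 to 27.1) above basal cells. Plakophilins 1 and 2 were therefore opposite between the layers, and Pkp3, at 135, 54.2 and 75.5 CPM, was 2.48-fold higher in basal than in LP cells (2.01 to 3.09).

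Luminal cells also carried the envelope linkers, and ML cells another desmocollin. Between basal and ML cells, 7 of the 12 had enough counts, of which Perp was past 2-fold higher in basal cells and Dsc2, Pkp2, Ppl and Evpl in ML cells (median log2 ratio -2.88). Over all genes, 20.4% were past it higher in basal and 19.6% in ML cells. Dsc2, a desmocollin, was mostly an ML gene, at 15.0 CPM (62 counts) against 2.32 in LP and 1.89 in basal cells (5 counts each), 6.48-fold above LP cells (2.63 to 20.6). Periplakin (Ppl) was 14.1-fold (3.49 to 124) and envoplakin (Evpl) 6.76-fold (1.47 to 62.7) higher in LP than in basal cells, although Evpl had only 13 counts there and was under the minimum. Against ML cells the ratios were 7.38 for Ppl and 12.5 for Evpl. Between ML and LP cells, 2 of 7 genes, Dsc2 and Perp, were past 2-fold, both higher in ML cells, where 17.9% of all genes were.

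**Figure D4:**
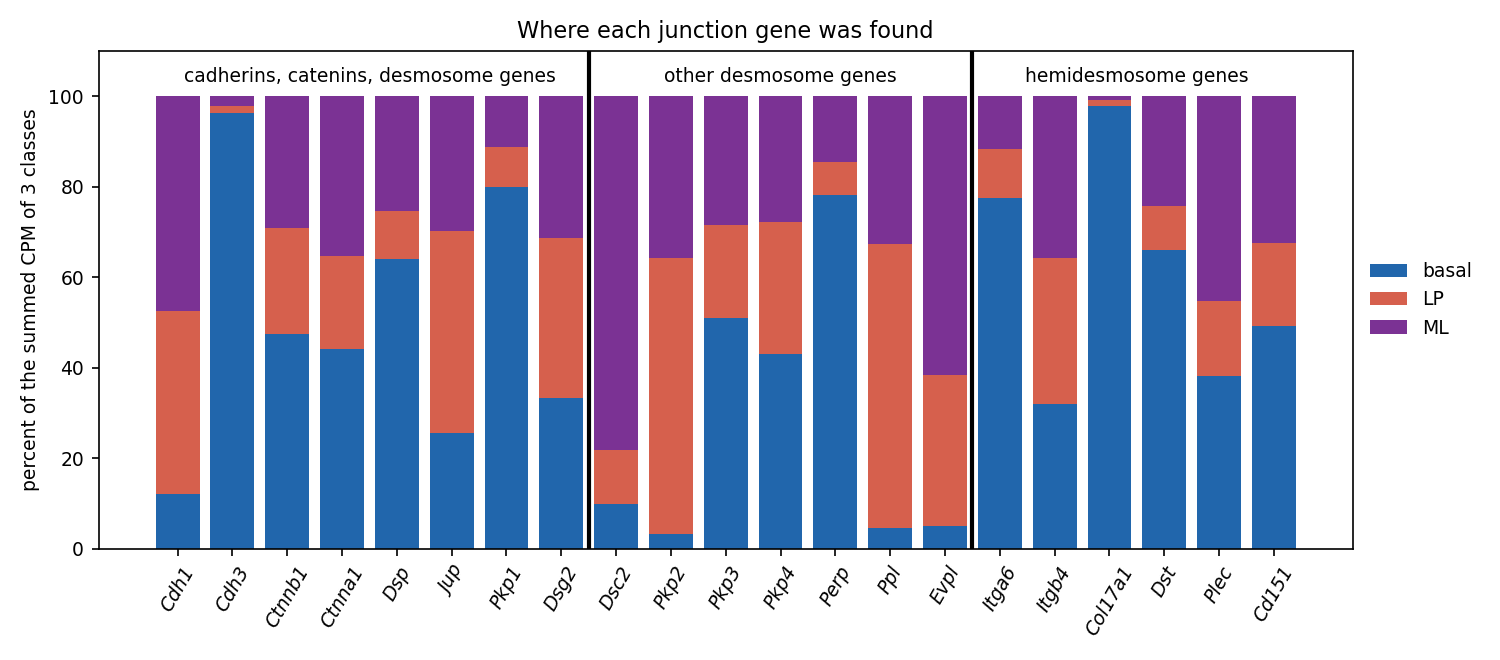
Split of the summed CPM of basal, LP and ML cells (vertical axis, percent) for each gene with 20 or more counts: the 8 detected cadherin, catenin and desmosome genes, other desmosome genes and hemidesmosome genes. Dsg2 was nearly even (33.2%, 35.4% and 31.4%); Cdh3 and Col17a1 were 96.3% and 97.8% basal, Pkp2 61.0% LP and Dsc2 78.1% ML.

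Hemidesmosomes, tie keratin filaments to the basement membrane. Of their 6 genes, 5 were past 2-fold higher in basal than in LP cells, where 22.3% of all genes were, and 3 were past it higher in basal than in ML cells, where 20.4% were, with median log2 ratios of 2.09 and 1.02. Col17a1, a hemidesmosome collagen, was 74.6-fold (25.3 to 364) and 107-fold (41.4 to 396) higher in basal cells than in LP and ML cells, from 275, 3 and 4 counts. Itga6, the integrin alpha-6 chain, was 7.12-fold and 6.64-fold higher. Its partner Itgb4 was at 10.6, 10.7 and 11.9 CPM in basal, LP and ML cells, with intervals of the ratios that included 1. Dst, a plakin related to desmoplakin, had the order of Dsp: 204 CPM in basal, 75.0 in ML and 30.1 in LP cells. Between ML and LP cells, Dst and Plec of 5 genes were past 2-fold, both higher in ML cells (median 0.83), where 17.9% of all genes were. Plectin (Plec) was lowest in LP cells too, at 13.4 CPM against 30.9 in basal and 36.8 in ML cells, 2.74-fold higher in ML than in LP cells (1.83 to 4.23).

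Among 9 other cadherins, Cdh13 (T-cadherin, which lacks a cytoplasmic tail) was the only one with 20 counts in these comparisons. It stood at 39.2 CPM in basal, 13.5 in ML and 0.927 in LP cells, 42.3-fold (11.4 to 354) and 2.89-fold (2.07 to 4.08) higher in basal cells than in LP and ML cells. Between ML and LP cells it was 14.6-fold higher in ML cells (3.86 to 124). N-cadherin (Cdh2) had 18 counts in basal cells and none in LP or ML cells, which on a floor of 3 counts per class was at least 4.88-fold and 9.35-fold higher in basal cells, with lower limits of 3.58 and 6.85 once the counting error of both classes is taken in; it fell under the minimum and was named after its counts were seen.

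Of 12 other catenins and linkers, 9 had enough counts in basal and LP cells, of which 4 were past 2-fold higher in basal cells (Ctnnal1, Ctnnd2, Vcl and Pvrl1) and 3 in LP cells (Ctnnbip1, Mllt4 and Pvrl4), with a median log2 ratio of -0.02. The shares over all genes were 22.3% and 12.3%. Against ML cells the same 4 were past 2-fold in basal cells and Pvrl4 alone in ML cells (median 0.46), and none of 8 was past 2-fold between ML and LP cells (median -0.15). Over all genes, 20.4% were past it in basal and 19.6% in ML cells, and 28.4% either way between ML and LP cells. Ctnnal1, an alpha-catenin relative, was 20.6-fold (10.7 to 45.7) and 16.9-fold (10.8 to 27.9) higher in basal than in LP and ML cells. The nectins, adhesion proteins that start adherens junctions, differed among themselves: nectin 1 (Pvrl1) was 8.37-fold (4.83 to 15.7) and 6.60-fold (4.52 to 9.90) higher in basal cells, and nectin 4 (Pvrl4) was 16.4-fold (8.05 to 39.0) and 32.8-fold (16.5 to 76.5) higher in LP and ML cells than in basal cells. Nectin 2 (Pvrl2), at 127, 186 and 166 CPM in the order basal, LP, ML, was under 2-fold in each comparison, and nectin 3 (Pvrl3) had 17 counts, all in basal cells. Ctnnd1, p120-catenin, which keeps cadherins at the surface, was at 49.8, 50.5 and 36.3 CPM in basal, LP and ML cells.

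Of 11 known repressors and activators of Cdh1 or of epithelial genes, 6 had enough counts in basal and LP cells, with Snai2 past 2-fold higher in basal cells and Grhl1 in LP cells (median log2 ratio -0.19). Over all genes 34.7% were past 2-fold, so the share of the 6 was near the background. Against ML cells Snai2 was again past it higher in basal cells and Grhl1 in ML cells (median 0.41), where 40.0% of all genes were past it. Between ML and LP cells Snai1 was the only one of 5 past 2-fold (median -0.51), where 28.4% of all genes were. Snai2 (Slug, a repressor of Cdh1) had 69 counts in basal cells, 1 in LP and none in ML cells, a ratio of 56.2 over LP cells (9.75 to 2250) and at least 35.8-fold over ML cells on a floor of 3 counts, with a lower limit of 28.4 for counting error. Grhl1, a grainyhead factor, had 55.9 CPM in ML, 33.8 in LP and 7.16 in basal cells, 4.72-fold (2.82 to 8.28) and 7.80-fold (4.88 to 13.2) above basal cells. Grhl2 was at 18.5, 18.1 and 21.1 CPM, and Ovol1 and Ovol2 were also under 2-fold between these classes. Snai1, another repressor, was at 8.34 CPM in LP and 4.11 in ML cells, and the interval of the ratio, 0.986 to 4.19, included 1. Zeb1 and Zeb2 had 3 and 2 counts, all in basal cells, and Twist1 none.

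The sorted basal library gave a second pool in which to read the basal levels. By the same rule 1757 of its 4771 cells were basal, with a median of 647 counts, and 2784 met no rule. Of the 8 genes with enough counts, 6 were past 2-fold higher in the sorted basal cells, where 44.7% of 9350 genes were past 2-fold and 27.5% higher in the sorted cells. Ctnna1 stood at 714 CPM (667 to 763) against 276, Cdh3 at 86.8 (70.9 to 105) against 30.9, Cdh1 at 50.9 (38.9 to 65.4) against 20.4, Dsp at 127 (108 to 149) against 56.6, Pkp1 at 74.3 (59.7 to 91.4) against 29.4 and Ctnnb1 at 379 (345 to 415) against 188. Jup was 1.51-fold higher (1.18 to 1.92), Dsg2 was at 10.0 CPM against 14.3, Dsc3 had 1 count and Dsg3 none.

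The ratios between libraries ran from 2.02 to 2.81 for the 6 genes. The median gene was 0.39 higher on the log2 scale in the sorted cells. With median-of-ratios scaling 1 gene of the 8, Cdh3, was past 2-fold, at a log2 ratio of 1.05. With that scaling 37.9% of all genes were past 2-fold in either direction, so the 6 genes past it under CPM depend on the scaling. Of the other lists, 1 of 2 cadherins, 4 of 9 catenins and linkers, 1 of 3 desmosome genes and 3 of 6 hemidesmosome genes were past 2-fold higher in the sorted cells and none lower; the median log2 ratios of the first 3 lists were 0.93, 0.91 and 0.94. Of the 6 regulators tested, Grhl2 and Ovol1 were higher and Grhl1 and Ovol2 lower (median -0.71). Over all genes, 27.5% were past 2-fold higher and 17.1% lower in the sorted cells. Sort, pool and depth differ together between the libraries and cannot be told apart.

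**Figure D5:**
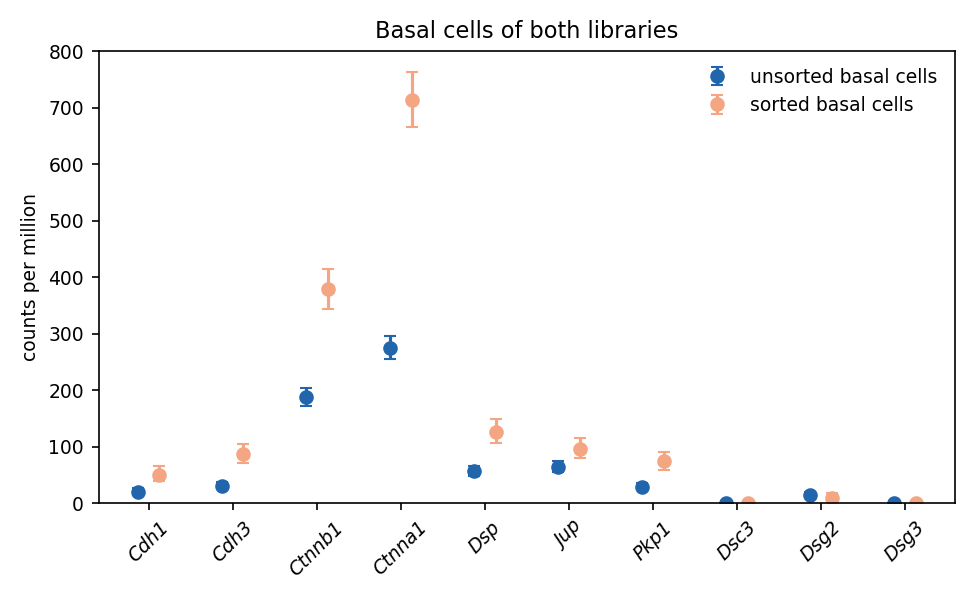
Level of each gene in CPM (vertical axis, from 0) in the 1280 basal cells of the total epithelial library and the 1757 basal cells of the sorted library; bars are 95% Poisson intervals. Ctnna1 and Ctnnb1 show the widest gaps in CPM, at 276 against 714 and 188 against 379, whereas by ratio Cdh3 differed most at 2.81-fold, and Dsg2 has overlapping intervals.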

How the data were processed

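Single-cell RNA-seq counts of 2 libraries were analysed. Reads were processed by the authors with Cell Ranger (version 1.2.1 in the submitters' processing notes, another version in the study's methods) against mm10; the deposited values are unique-molecule counts per gene and cell, without normalization. The annotation release and strand setting are not given in the sources used here. Counting collapsed reads of 1 molecule and chose the barcodes, neither of which can be repeated from counts.

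Counts were summed over the cells of each class and scaled to CPM by the class total. Levels were given exact Poisson 95% intervals, ratios exact conditional binomial intervals, and shares Clopper-Pearson intervals; all cover counting error only. With 1 library per group no test was made. "Past 2-fold" was read over all genes with 20 or more counts in the pair. A count of 0 was set at a floor of 3 counts for bounds. Shares were also computed for an even depth, by thinning to 1000 counts per cell. Scrublet in scanpy 1.11.5 called 41 of 3302 cells doublets; they were kept. The ratio and interval code was tested on simulated counts. Python 3.11.15, numpy 2.4.6 and scipy 1.17.1 were used, and gene positions came from GENCODE M21.

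The genes, lists and class rules were chosen with earlier results of these data known. Named were all 10 genes and, from the other lists, up to 4 genes past 2-fold per list and comparison with the largest ratios; the others named were chosen after their values were seen. The 65 repeated symbols did not include the 10 genes. By the same rules, 31 of 1280 basal cells had no Krt5 or Krt14 count and 98 of 766 LP cells had fewer than 10 counts of LP genes. Of the same 766 LP cells, 83 had 5 to 9 counts of the ML rule genes. Alternatives changed the rule counts, scaling, gene minimum, depth, doublets, abundant genes and cells of both rules.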

Additional observations from a re-analysis of the deposited data

How the results depend on the processing

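No paired analysis was possible because each group was 1 library and no result came from a test. Alternatives were run for the 10 genes and not for the other lists. None of the 10 genes' ratios that were past 2-fold changed direction in those where it had enough counts. The number past 2-fold for basal against LP cells was 6 and ran from 4 to 7 over 12 alternatives. It was 4 under median-of-ratios scaling and under a rule count of 20, beside 33.3% and 33.2% of all genes. The 7 came with no minimum count per gene, which added Dsc3 on 2 counts, where 48.6% of all genes were past 2-fold. For basal against ML cells the number was 4 or 5. The 5 again came from adding Dsc3 with no minimum count, where 51.9% of all genes were past 2-fold. For ML against LP cells the number fell from 1 to 0 with a rule count of 20, beside 20.2% of all genes. Over the alternatives for that pair, the log2 ratio of Dsp ran from 0.61 to 1.77. For sorted against unsorted basal cells the number fell from 6 to 1 with median-of-ratios scaling, beside 37.9% of all genes. Cdh3 counts per Cdh1 count in LP cells, which rest on 1 count, were 0 with a rule count of 5 and 0 after thinning to 1000 counts. The log2 ratio of Cdh1 ran from -2.03 to -1.61 for basal against LP cells and from -2.23 to -1.84 for basal against ML cells, that of Dsp from 2.06 to 3.06 and from 1.11 to 1.45, that of Cdh3 from 4.46 to 6.09 and from 4.46 to 5.71, and that of Pkp1 from 2.75 to 3.25 and from 2.62 to 2.98. The range of Cdh3 for basal against LP cells rests on 8 of the 12 alternatives. In the rest LP cells had no Cdh3 count and no ratio could be formed, so 6.09 is not an upper bound. Ctnnb1 (0.83 to 1.12) and Ctnna1 (0.84 to 1.17) crossed 2-fold for basal against LP cells. Alternatives requiring a Krt5 or Krt14 count in basal cells, luminal keratins in ML cells, 10 counts of LP genes in LP cells, or thinning to 500 counts between libraries were chosen after seeing the data. Depth limits Dsc3, Dsg3 and luminal Cdh3, for which differences between classes of a few CPM were not detectable.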
